A study of Mus musculus with 6 samples.

Results

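The genes of the Th1 programme were examined in Blimp1-deficient and Blimp1-sufficient Foxp3+ regulatory T cells: the cytokine gene Ifng, the transcription factor genes Tbx21, Eomes and Runx3, the cofactor gene Hopx, and the receptor chain genes Il12rb1, Il12rb2, Il18r1 and Il18rap. They were chosen by symbol, and all probes annotated to these symbols were taken. The 9 genes, of 19057 with a probe, have 16 of the 45281 probes on the array. The study compared 3 CKO arrays with 3 Ctrl arrays of pTreg cells, regulatory T cells that arose in the periphery from transferred naive CD4+ T cells. CKO cells were C57BL/6 Prdm1flox/flox CD4-Cre+ and carried Thy1.2, and Ctrl cells were Prdm1+/+ CD4-Cre+ and carried Thy1.1, so both groups expressed CD4-Cre and a Foxp3-GFP reporter. The Cre transgene is active in all T cells from the thymus on, and naive cells of both genotypes were transferred together into RAG1-/- mice on C57BL/6, which lack T and B cells of their own but keep NK and myeloid cells. GFP+ cells were sorted weeks later. One field of the labels calls the cells iTreg and another peripheral Treg cells, and the labels of replicates 2 and 3 carry the letters P+I while those of replicate 1 name no stimulus. Separate hosts for each replicate are not stated in the labels, and p-values measure the spread between these samples.

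Th1 cells are the helper T cells of defence against intracellular microbes, and IFN-γ is their signature cytokine. IL-12, bound by the chains of Il12rb1 and Il12rb2, signals through STAT4, and IL-18, bound by the chain of Il18r1 with Il18rap as its signalling partner, acts through MyD88 and IRAK kinases. Together they raise IFN-γ production, while T-bet, the product of Tbx21, switches on Ifng with Runx3, and Eomes, a second T-box factor, does so mainly in CD8 T and NK cells. Regulatory T cells can take on T-bet and CXCR3 in Th1 inflammation. Blimp1, the product of Prdm1, is a DNA-binding repressor that has been described to act on Ifng and Tbx21 in cultured helper T cells.

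Levels are given as normalized intensity, the brightness of a probe after background subtraction and quantile normalization over the 6 arrays. Probes differ in how well they bind, so a level is compared between arrays for 1 probe and never between genes. Background was the level under which 95% of the olfactory and vomeronasal receptor probes of an array lay, at intensities of 6.17 to 9.51, and 32.4% to 38.3% of probes were above it per array. Prdm1, the targeted gene, had intensities of 561, 341 and 704 in CKO replicates 1, 2 and 3 and of 18.9, 50.9 and 49.2 in Ctrl replicates 1, 2 and 3. No source used here says whether this probe lies in the deleted part of Prdm1, so its level is no check of the deletion. Foxp3, the gene on which the cells were sorted, had 433, 165 and 216 in CKO and 479.5, 212 and 141 in Ctrl cells. All 8 Treg marker genes with a probe, Foxp3, Ctla4 and Il2ra among them, were measured, and their summed intensity was 5817 to 7223 in CKO and 10985 to 15343 in Ctrl cells. Their log2 fold changes, CKO over Ctrl, were negative for 6 and positive for 2, with a median of -1.18. Gpr83 and Izumo1r fell in CKO cells, by -3.07 and -2.63 on the log2 scale (limma's adjusted p = 0.028 each). Izumo1r was above background on 2 of 3 CKO arrays. Among all genes tested 0.271% passed an adjusted p of 0.05. Of 14 NK cell markers 9 were measured, with sums of 245 to 866 in CKO and 187 to 1472 in Ctrl cells, and the defining genes Ncr1 and Klrb1c were above background on no array. The largest part of each NK sum was Fcer1g, with 404, 145 and 679 in CKO and 856, 92.6 and 1206 in Ctrl replicates 1, 2 and 3. Of 14 macrophage, monocyte and neutrophil markers 8 were measured, with Adgre1, Itgam and Cybb above background on no array. Their sums were 12441, 1666 and 22212 in CKO and 23110.5, 2469 and 31758 in Ctrl cells, so each CKO array was below the Ctrl array of its replicate and replicate 2 was lowest in both groups. Of 8 dendritic cell markers 3 were measured, Batf3, H2-Aa and Zbtb46, with sums of 316 to 706 in CKO and 54.4 to 182 in Ctrl cells. Itgax, Xcr1, Clec9a and Siglech were above background on no array. Batf3 had 197, 223 and 358 in CKO and 3.90, 63.1 and 10.9 in Ctrl replicates 1, 2 and 3. H2-Aa had 89.4, 421 and 134 in CKO and 80.1, 90.1 and 41.9 in Ctrl cells.

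Of the 9 Th1 genes, 7 had a probe above background on at least 2 arrays and were tested, with 11 of the 16 probes. Il12rb2, the chain that makes the IL-12 receptor signal, and Runx3 have 1 probe each, above background on no array. Normalized values of the Il12rb2 probe lay between -16.0 and 5.50 and those of the Runx3 probe between -4.68 and 3.59. No level or difference can be given for these genes. In limma over 9597 genes, 0 of the 7 genes passed an adjusted p of 0.05 (Benjamini-Hochberg), against 0.271% of all genes tested, and 1 of the 7, Hopx, had an unadjusted p under 0.05, against 8.10% of all genes. Their log2 fold changes, CKO over Ctrl, were negative for 6 genes and positive for 1, with a median of -0.35, against a median of 0.018 for all genes. In a fit of all 14817 probes, 0 of the 11 probes passed, against 0.148% of all probes, and 2 had an unadjusted p under 0.05, against 7.64% of all probes. In bulk RNA, fewer cells that express a gene and less RNA of it in each cell cannot be told apart.

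**Figure D1:**
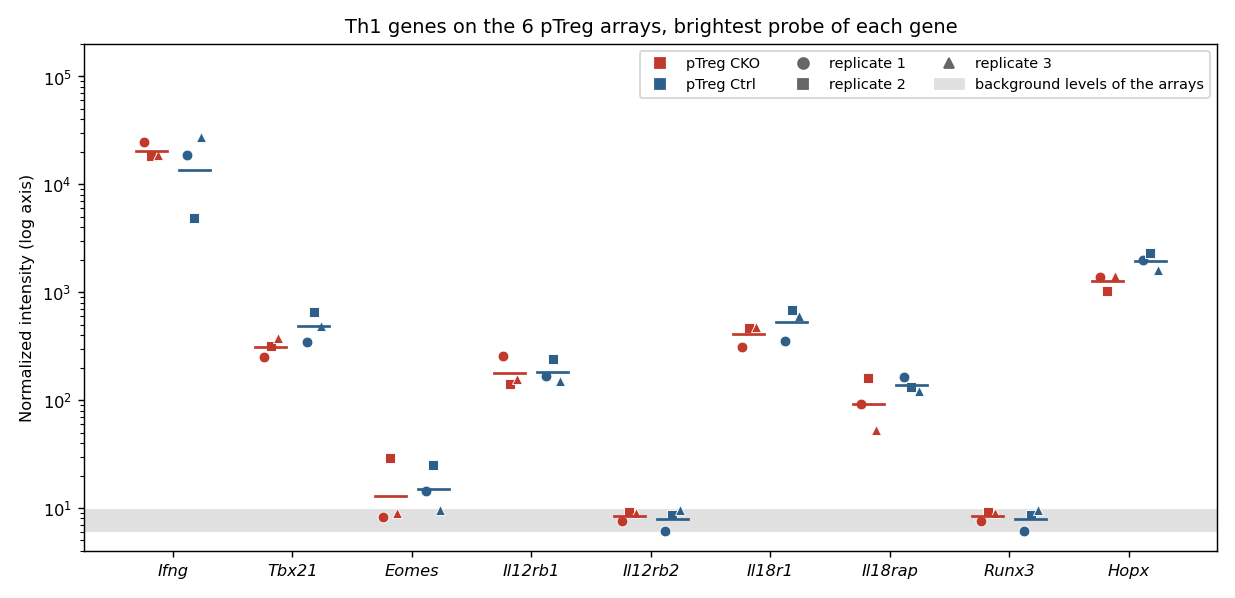
Normalized intensity on a log axis for the brightest probe of each of the 9 Th1 genes, with a point for each array (red, CKO; blue, Ctrl; the symbol gives the replicate), a bar for the mean of log2 values and a grey band for the background levels of 6.17 to 9.51. Values below background are drawn at the array's background level, as are all points of Il12rb2 and Runx3, and Hopx has all 3 CKO arrays, up to 1413, below the lowest Ctrl array, at 1621.

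Ifng was far above background on all 6 arrays and the groups overlapped. Its brighter probe had intensities of 24439.7, 18347 and 18597 in CKO replicates 1, 2 and 3 and of 18891, 4885 and 27726 in Ctrl replicates 1, 2 and 3, where the highest value of any probe was 30629. The CKO arrays lay close together, and the Ctrl arrays held both the lowest and the highest of the 6 values. The means were 20461 ± 3448 in CKO and 17168 ± 11518 in Ctrl cells (SD, n = 3 each), and the log2 fold change was 0.57 ± 0.59 (standard error, limma's adjusted p = 0.92). The 95% interval of the fold ran from 0.580 to 3.79, a range that takes in both lower and higher levels in CKO cells. The spread of Ifng within groups was larger than that of 96.7% of the genes tested. Its log2 fold change was 0.37 in the pair of replicate 1, 1.91 in that of replicate 2 and -0.58 in that of replicate 3. Ctrl replicate 2 set the direction: without it the log2 fold change was -0.18 (adjusted p = 0.98 from limma), and without both arrays of replicate 2 it was -0.11. The other Ifng probe had 16015, 9634 and 11231 in CKO and 12752, 4465 and 13957 in Ctrl cells, again lowest in Ctrl replicate 2, with a log2 fold change of 0.37 ± 0.45 (standard error, limma's adjusted p = 0.95). The myeloid marker sum was also low on Ctrl replicate 2, at 2469, but it was low on CKO replicate 2 too, at 1666, where Ifng was 18347, and its part in the Ifng values was not tested.

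Ctrl replicate 2 was not low for the other tested genes of the set. It gave the highest of the 6 values for Tbx21, Il18r1 and Hopx and the second highest for Il12rb1 and Eomes. Th1 effector genes, listed below, went both ways on this array. Ccl5, at 388, and Fasl, at 313, had the lowest of their 6 values there, and Tnf, at 3443, and Furin, at 8779, the highest. The 5 genes whose profile over the 6 arrays lay nearest to that of Ifng, by the root mean square difference of log2 values centred on each gene's mean, were Yod1 at 0.26, Rnf141 and Brwd3 at 0.35 each, Gpc1 at 0.37 and Cpped1 at 0.38. All 5 had their lowest value on Ctrl replicate 2, which their choice by likeness to Ifng largely fixed, as with Yod1 at 43.8, 49.4 and 54.1 in CKO and 52.0, 13.7 and 56.7 in Ctrl cells.

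Tbx21, the gene of T-bet, was lower in CKO cells in each pair but did not pass the test. Its 1 probe had intensities of 252, 316 and 375 in CKO and 348, 657 and 490.0 in Ctrl replicates 1, 2 and 3. Each CKO array was below the Ctrl array of the same replicate, while CKO replicate 3 lay above Ctrl replicate 1, so the groups overlapped. The means were 314 ± 61.5 in CKO and 498 ± 155 in Ctrl cells (SD, n = 3 each), with a log2 fold change of -0.64 ± 0.30 (standard error, limma's adjusted p = 0.67) and a 95% interval of the fold from 0.399 to 1.04. The pairs gave -0.46, -1.06 and -0.39, and leaving out 1 array at a time gave -0.87 to -0.41. Tbx21 is among the genes that the study drew for these samples, so its direction is not independent evidence.

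The bases before the start sites of Ifng and Tbx21 are shown because Blimp1 recognizes DNA with the core GAAAG and both genes have been described as its targets. They are from RefSeq (GRCm38.p6), upstream of the transcript start and read 5′ to 3′ on the gene's strand, with a GAAAG core on either strand (CTTTC on the other) in capitals. Ifng lies on the plus strand, at chr10:118440796-118441045, and Tbx21 on the minus strand, at chr11:97115332-97115581.
Ifng: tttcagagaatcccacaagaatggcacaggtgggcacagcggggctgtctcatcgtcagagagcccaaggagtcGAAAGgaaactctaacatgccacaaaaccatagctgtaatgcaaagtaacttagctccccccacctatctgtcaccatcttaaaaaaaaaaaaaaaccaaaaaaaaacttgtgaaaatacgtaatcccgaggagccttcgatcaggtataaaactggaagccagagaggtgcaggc
Tbx21: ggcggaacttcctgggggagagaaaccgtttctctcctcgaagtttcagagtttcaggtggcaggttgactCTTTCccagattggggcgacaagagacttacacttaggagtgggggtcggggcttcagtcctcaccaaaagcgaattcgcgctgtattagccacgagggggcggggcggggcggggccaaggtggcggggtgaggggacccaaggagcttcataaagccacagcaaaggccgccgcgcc
Each window of 250 bases holds 1 such core, whose first base lies 176 bases before the start site of Ifng and 179 bases before that of Tbx21. Of the 9 genes 8 have a window in the table, 12 windows in all since some have several start sites, and 9 of the 12 hold the core on one strand or the other, against 51.5% of all 32851 windows. A pair of the Il18r1 windows overlap and share 1 core, which is counted in both. The RUNX core TGTGGT, or its reverse complement ACCACA, is in 1 of the 12, of Runx3, against 14.0% of all windows, and the T-box core GTGTGA, or its reverse complement TCACAC, is in 1, of Il12rb2, against 12.3%. No match overlapped one of another motif. These are matches of letters and no measure of binding.

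Eomes was near background. Its brighter probe had 8.30, 29.1 and 3.66 in CKO and 14.4, 24.8 and 7.07 in Ctrl cells, and in each group it was above background on 2 of 3 arrays, all but replicate 3. The arrays of replicate 2 were the highest in both groups. The log2 fold change was -0.22 ± 0.54 (standard error, limma's adjusted p = 0.98) and changed sign when CKO replicate 1, CKO replicate 3 or Ctrl replicate 2 was left out (0.10, 0.046 and 0.14). The other probe had 7.65, 4.82 and 5.31 in CKO and 24.2, 21.0 and 5.03 in Ctrl cells and was above background on 1 of 3 CKO and 2 of 3 Ctrl arrays. Its log2 fold change of -0.99 ± 0.37 (standard error, limma's adjusted p = 0.53 over probes) had an unadjusted p of 0.027.

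Hopx was the one Th1 gene whose groups did not overlap. It encodes an atypical homeodomain protein that does not bind DNA and is expressed in Th1 cells downstream of T-bet. Its intensities were 1395, 1036 and 1413 in CKO and 1981, 2327 and 1621 in Ctrl replicates 1, 2 and 3. Every CKO array lay below every Ctrl array, which held for 1 of the 7 genes tested and for 7.10% of all genes. The means were 1281 ± 212 in CKO and 1976 ± 353 in Ctrl cells (SD, n = 3 each), with a log2 fold change of -0.62 ± 0.25 (standard error, unadjusted p = 0.036, limma's adjusted p = 0.53) and a 95% interval of the fold from 0.436 to 0.965. In this fit, which did not pair the arrays, Hopx alone met both thresholds that the study used. These were 1.5-fold or more with p below 0.05 before adjustment, and 7.44% of all genes met them. The pairs of replicates 1, 2 and 3 gave -0.51, -1.17 and -0.20, with the largest change in replicate 2. The second Hopx probe was above background on no array.

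**Figure D2:**
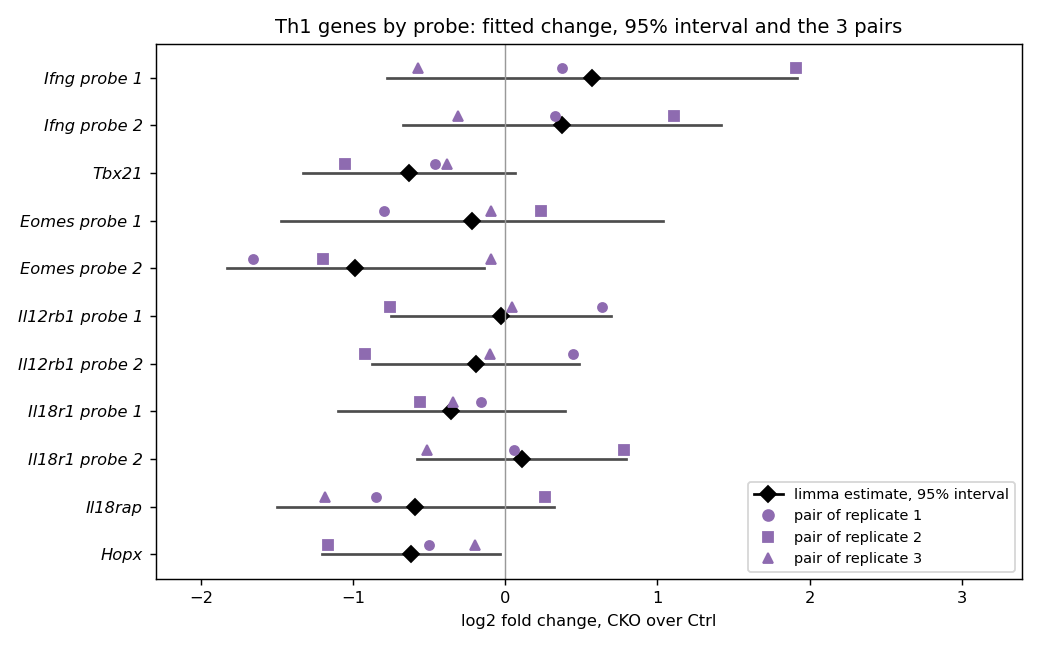
Log2 fold change, CKO over Ctrl, of the 11 tested probes of Th1 genes, with black diamonds and lines for the limma estimate and its 95% interval and purple symbols for the 3 pairs of arrays. Tbx21, Hopx and the first Il18r1 probe had all 3 pairs below 0, while the 3 pairs of Ifng spread from -0.58 to 1.91. For both Eomes probes the pair of replicate 3 shows only the difference of 2 background levels.

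The IL-12 receptor chain that was measured did not differ detectably. Il12rb1, whose product is shared with the IL-23 receptor, had intensities of 257, 142 and 157 in CKO and 166, 241 and 152 in Ctrl replicates 1, 2 and 3. The highest value was a CKO array and the lowest also a CKO array, so the ranges overlapped fully. The means were 185 ± 62.7 in CKO and 186 ± 47.7 in Ctrl cells (SD, n = 3 each), with a log2 fold change of -0.03 ± 0.31 (standard error, limma's adjusted p = 0.995) and a 95% interval of the fold from 0.598 to 1.61. The pairs went in different directions, at 0.63, -0.76 and 0.04. Its second probe, at 118, 70.8 and 82.9 in CKO and 86.6, 134 and 88.9 in Ctrl cells, gave a log2 fold change of -0.19.

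The chains of the IL-18 receptor overlapped between groups. Il18r1, the IL-18-binding chain, had intensities of 313, 464 and 476 in CKO and 349.9, 684 and 604 in Ctrl replicates 1, 2 and 3. Each CKO array was below the Ctrl array of its replicate, by -0.16, -0.56 and -0.34 on the log2 scale. The means were 418 ± 90.6 in CKO and 546 ± 175 in Ctrl cells (SD, n = 3 each), with a log2 fold change of -0.35 ± 0.32 (standard error, limma's adjusted p = 0.91) and a 95% interval of the fold from 0.467 to 1.31. It was -0.65 without Ctrl replicate 1, -0.16 without CKO replicate 1 and -0.16 without Ctrl replicate 2. A second Il18r1 probe, annotated to another transcript, disagreed in sign, with 50.8, 82.6 and 51.4 in CKO and 48.9, 48.1 and 73.5 in Ctrl cells and a log2 fold change of 0.11, and the third was above background on no array. Il18r1 was the one gene of the set with tested probes of opposite sign. Il18rap, the signalling chain, had 91.5, 159.6 and 53.0 in CKO and 165, 133 and 121 in Ctrl cells, and the CKO arrays held both the second highest and the lowest value. Its log2 fold change was -0.59 ± 0.39 (standard error, limma's adjusted p = 0.83, 95% interval of the fold 0.353 to 1.25), with -0.85, 0.26 and -1.19 in the pairs. It was -0.99 without CKO replicate 2 and -0.19 without CKO replicate 3. Its second probe was above background on 1 array.

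Lower values in all 3 pairs were seen for Tbx21, Il18r1 and Hopx. These are 3 of the 7 genes tested, and 18.1% of all genes were lower in CKO cells in all 3 pairs. The replicate number pairs the samples, and with it as a block 0 of the 7 genes passed an adjusted p of 0.05, against 1.83% of all genes. The smallest adjusted p-values of limma with the block were 0.21 for Tbx21 and 0.27 for Hopx. Before adjustment, limma's p-values with the block were 0.021 for Tbx21 and 0.034 for Hopx. The block leaves their estimates unchanged, at 1.55-fold and 1.54-fold lower, so both met the study's thresholds there. The share of all genes that did so with the block was not counted. Slide 1 holds 1 array of each group, so a difference of the genotype effect between slides rests on a single pair there, and nothing is read from its test.

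**Figure D3:**
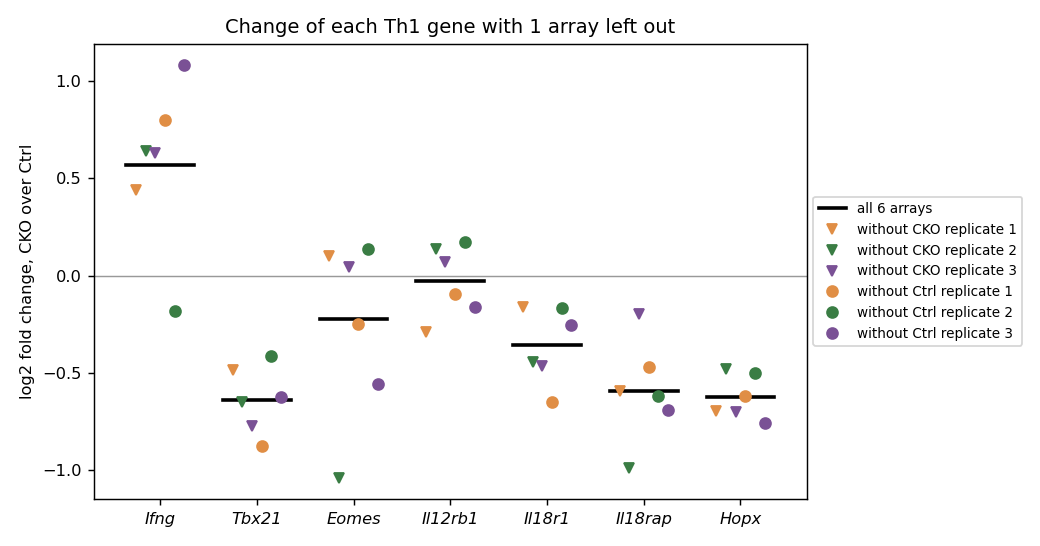
Log2 fold change, CKO over Ctrl, of the 7 tested Th1 genes over all 6 arrays (black bar) and with each array left out (triangles, CKO; circles, Ctrl; the colour gives the replicate). Ifng changed sign only without Ctrl replicate 2, at -0.18, while Tbx21, Il18r1, Il18rap and Hopx stayed below 0 in all 6 fits.

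Around these genes, 116 genes of the pathway were listed by role and 94 of them were tested. Without a block 2 passed an adjusted p of 0.05, Prdm1 and Bcl6, both of which rose in CKO cells and are among the genes the study drew for these samples. With the replicate block 13 passed, 13.8% of the 94. The lists were made with earlier results of these data known, so nothing is read from that share. Among all genes, 4.35% met the study's thresholds of 1.5-fold and an unadjusted p below 0.05 as lower in CKO cells and 3.09% as higher. The counts below at these thresholds stand beside these shares for scale only. For the same reason, no excess is read from those counts or from the medians of the lists.

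Of 12 genes listed for IL-12 signalling 9 were tested, with a median log2 fold change of -0.44 (-0.56 without Ctrl replicate 2 and -0.23 without CKO replicate 3). At the study's thresholds 1 was higher and 1 lower. The list also holds genes of other cytokine receptors, such as Il6st, so its median is not one of IL-12 signalling alone. That median is the value of Stat3, while Tyk2 and Jak2 had log2 fold changes of -0.13 and -0.05. Stat4, which relays the IL-12 signal, had intensities of 1525, 1019 and 1024 in CKO and 439.8, 449 and 579 in Ctrl replicates 1, 2 and 3. Every CKO array was above every Ctrl array, with a log2 fold change of 1.27 ± 0.26 (standard error, limma's adjusted p = 0.14, or 0.054 when blocked by replicate). The study drew Stat4 for these samples too. Il6st, the gp130 chain that serves the IL-27 and IL-6 receptors, had 36.03, 24.9 and 26.5 in CKO and 79.2, 112 and 45.2 in Ctrl cells, with no overlap and a log2 fold change of -1.36 ± 0.36 (standard error, limma's adjusted p = 0.25).

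Of 18 genes of IL-18 signalling 14 were tested, with a median log2 fold change of 0.009 (-0.10 to 0.07 with 1 array left out), and at the study's thresholds 3 were higher and 1 lower. Sigirr, a receptor that damps IL-1 and IL-18 signals, had 356, 191 and 241 in CKO and 153, 96.8 and 67.4 in Ctrl cells, all CKO arrays above all Ctrl arrays. Its log2 fold change was 1.35 ± 0.37 (standard error, limma's adjusted p = 0.28, or 0.041 when blocked by replicate). Irak3, a kinase-family member that restrains IRAK signalling, had 9.74, 8.02 and 19.9 in CKO and 48.0, 20.2 and 51.5 in Ctrl cells, and 2 of its 3 CKO arrays were above background. Its log2 fold change was -1.60 ± 0.45 (standard error, limma's adjusted p = 0.29, or 0.039 when blocked by replicate). Il1rap, the accessory chain of the IL-1 and IL-33 receptors, and Il18bp, a secreted protein that captures IL-18, had log2 fold changes of 0.80 and 0.86, with adjusted p-values of 0.38 and 0.49 from limma.

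Downstream of IFN-γ, 8 of 9 genes of its receptor and signalling were tested, with a median log2 fold change of -0.15 (-0.29 without CKO replicate 2 and 0.078, of opposite sign, without CKO replicate 3), with 2 lower and 0 higher genes past both thresholds. Ifngr1, the ligand-binding chain of the IFN-γ receptor, had intensities of 87.9, 65.2 and 102.5 in CKO and 352, 156 and 239 in Ctrl replicates 1, 2 and 3, so that no CKO array reached the lowest Ctrl array. The means were 85.2 ± 18.8 in CKO and 249 ± 98.2 in Ctrl cells (SD, n = 3 each), with a log2 fold change of -1.49 ± 0.34 (standard error, limma's adjusted p = 0.18, or 0.032 when blocked by replicate). Ifngr2, the signalling chain, had 77.3, 125 and 59.2 in CKO and 99.6, 112 and 72.6 in Ctrl cells, overlapping, with a log2 fold change of -0.17. Jak1, the kinase bound to Ifngr1, had 24.0, 21.3 and 18.8 in CKO and 25.3, 65.2 and 53.4 in Ctrl cells, and its log2 fold change of -1.07 ± 0.36 (standard error, limma's adjusted p = 0.42) came from replicates 2 and 3, since the pair of replicate 1 gave -0.08.

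Of 24 genes that IFN-γ induces 19 were tested. Their median log2 fold change was -0.56 (-0.71 to -0.31 with 1 array left out), 16 were negative and 3 positive, and 7 genes past both thresholds were lower and 0 higher, while 0 passed the adjusted p without a block and 1 was lower with the replicate block. That gene was Gbp7, a guanylate-binding GTPase, with intensities of 49.99, 58.9 and 106 in CKO and 249, 298 and 318 in Ctrl replicates 1, 2 and 3. All CKO arrays lay far below all Ctrl arrays, with a log2 fold change of -2.08 ± 0.32 (standard error, limma's adjusted p = 0.056, or 0.013 when blocked by replicate). Igtp, an immunity-related GTPase, had 1261, 1149.6 and 1576 in CKO and 2554, 2687 and 2477 in Ctrl cells, also without overlap and with a log2 fold change of -0.97 ± 0.22 (standard error, limma's adjusted p = 0.18). Gbp5 had 29.1, 55.0 and 51.7 in CKO and 119, 144 and 71.9 in Ctrl cells (log2 fold change -1.30, adjusted p = 0.29 from limma). Tgtp1, a GTPase of the same defence, had 20.4, 1.88 and 6.40 in CKO and 23.7, 26.9 and 38.8 in Ctrl cells (log2 fold change -1.30, adjusted p = 0.30 from limma) and was above background on 1 of 3 CKO arrays. The other 3 lower genes were Gbp3, Irgm2 and Ifi47. Guanylate-binding and immunity-related GTPases are families of close copies, and how far a probe also binds a copy was not tested. The myeloid marker sums given above were also lower in CKO cells in every pair, but S100a8 alone made up most of each sum. All 8 measured markers had negative log2 fold changes, from -1.44 for Elane to -0.003 for Csf1r, and 0 had an unadjusted p under 0.05 in limma. In the pair of replicate 2, Cd14 and Lyz2 were higher in CKO cells, by 0.98 and 1.05 on the log2 scale. The part of myeloid cells in the values of the IFN-γ-induced genes was not tested. Of the 7 lower genes counted over all arrays, 6 to 7 were counted with 1 array left out and 4 without both arrays of replicate 2.

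Of 24 Th1 effector genes 21 were tested, with a median log2 fold change of -0.53 (-0.75 without Ctrl replicate 2 and -0.24 without Ctrl replicate 3), and at the study's thresholds 3 were higher and 6 lower. Xcl1, the chemokine lymphotactin, had intensities of 19562, 10913 and 17263 in CKO and 4246, 3729 and 7316 in Ctrl replicates 1, 2 and 3, with no overlap. Its log2 fold change was 1.66 ± 0.34 (standard error, limma's adjusted p = 0.15, or 0.028 when blocked by replicate). Lta, which encodes lymphotoxin alpha, had 625, 873 and 503 in CKO and 208, 271 and 306 in Ctrl cells, again without overlap and with a log2 fold change of 1.33 ± 0.28 (standard error, limma's adjusted p = 0.16, or 0.051 when blocked by replicate). Cxcr3, the chemokine receptor of Th1 cells, had 2258, 2051 and 1178 in CKO and 1215, 1053 and 630.3 in Ctrl cells, with an overlap but close pairs of 0.89, 0.96 and 0.90 and a log2 fold change of 0.92 ± 0.35 (standard error, limma's adjusted p = 0.50, or 0.061 when blocked by replicate). On the lower side, Selplg, the selectin ligand of homing T cells, had 420.3, 689.7 and 716 in CKO and 1403, 1615 and 1317 in Ctrl cells (log2 fold change -1.28 ± 0.27, standard error, limma's adjusted p = 0.16, or 0.046 when blocked by replicate). Cd226, an activating receptor, had 8.86, 18.4 and 5.20 in CKO and 22.8, 26.2 and 36.04 in Ctrl cells (log2 fold change -1.30, adjusted p = 0.26 from limma), with 2 of 3 CKO arrays above background. With the block 1 effector gene was higher, Xcl1, and 5 were lower, Selplg, Cxcr6, Klrg1, Ccl3 and Nkg7. The 6 lower genes at the study's thresholds were 3 without CKO replicate 1 and 3 without Ctrl replicate 3. Many of these genes are also expressed by NK and CD8 T cells. Of the 2 CD8 T cell markers Cd8a was above background on no array, while Cd8b1 had 544, 625 and 934 in CKO and 656, 809 and 1031 in Ctrl cells, and their part in these values, as that of the NK sums given above, was not tested.

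**Figure D4:**
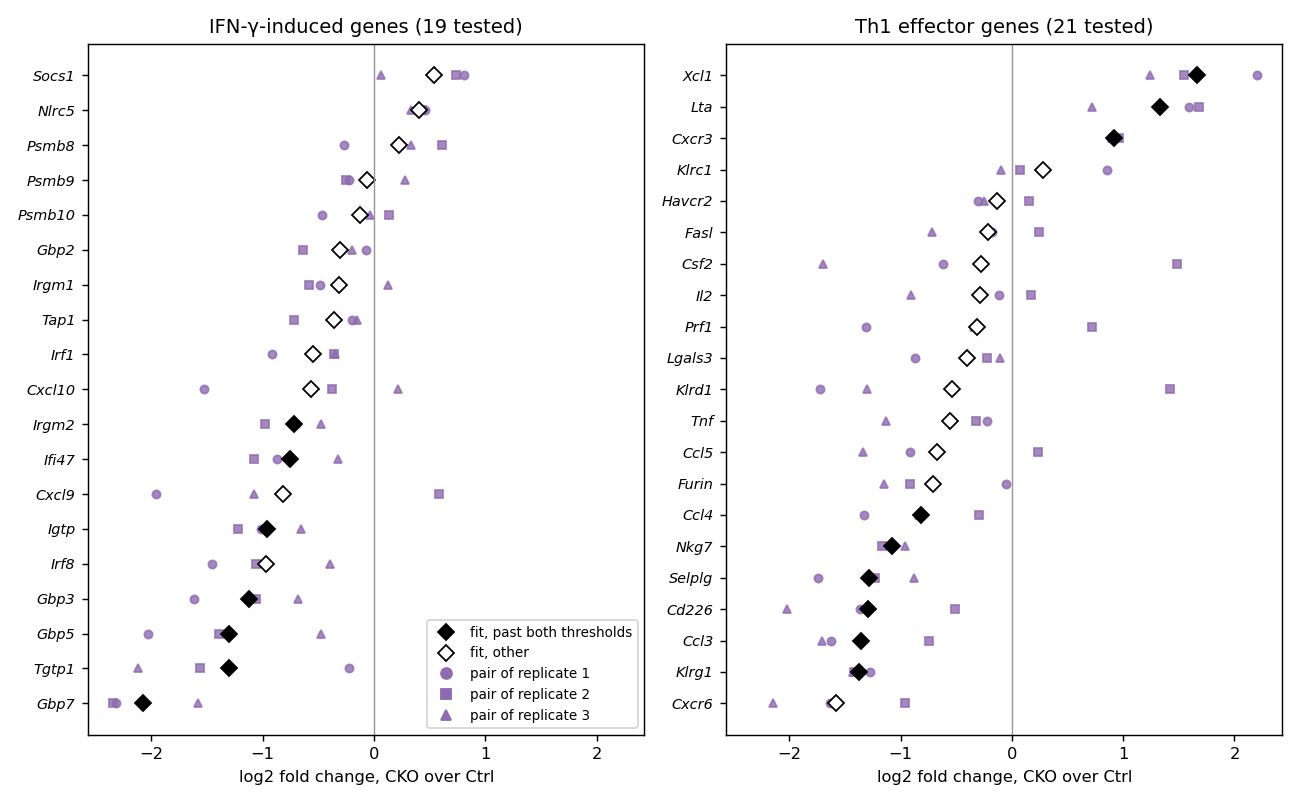
Log2 fold change, CKO over Ctrl, of the tested genes that IFN-γ induces (left) and of Th1 effector genes (right), with diamonds for the limma estimate (filled where both thresholds of the study were met) and purple symbols for the 3 pairs of arrays. Of the 19 genes on the left 16 lie below 0, down to -2.08 for Gbp7, and on the right Xcl1, at 1.66, lies farthest above 0.

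Among factors that act on the programme, 13 of 14 regulators of Th1 cells were tested, with a median log2 fold change of -0.24 (-0.37 without CKO replicate 1 and -0.06 without CKO replicate 3), and at the study's thresholds 2 were higher, Prdm1 and Stat4, and 1 lower. Prdm1 rose, with a log2 fold change of 3.82 ± 0.45 (standard error, limma's adjusted p = 0.028). Ikzf3, which encodes the Ikaros family factor Aiolos, had 437, 237 and 185 in CKO and 912, 536 and 428 in Ctrl replicates 1, 2 and 3. The groups overlapped because replicate 1 was high in both, but the pairs agreed at -1.06, -1.18 and -1.21, and the adjusted p was 0.44 from limma and 0.035 with the replicate block. Of 9 genes of the RUNX partners and ThPOK 6 were tested, with a median log2 fold change of 0.26 (0.16 to 0.41 with 1 array left out) and 1 higher at the study's thresholds. That was Runx1, with 116, 164 and 94.1 in CKO and 48.0, 78.0 and 86.8 in Ctrl cells (log2 fold change 0.82, adjusted p = 0.51 from limma), while Cbfb, the subunit that all RUNX factors share, had a log2 fold change of 0.03. Of 14 factors that restrain Th1 genes 9 were tested, with a median of 0.012 (0.013 to 0.17 with 1 array left out) and 1 higher at the study's thresholds. Bcl6, a transcriptional repressor that drives follicular helper T cells and opposes Blimp1, had 500.4, 482 and 306 in CKO and 97.9, 91.3 and 136 in Ctrl cells. All CKO arrays were above all Ctrl arrays. It rose by 1.98 on the log2 scale (standard error 0.28, adjusted p = 0.048 from limma), and limma's adjusted p was 0.084 when blocked by slide. Gata3, the Th2 factor that opposes T-bet, had 543, 898 and 655 in CKO and 823, 807 and 477 in Ctrl cells, overlapping, with a log2 fold change of 0.00 ± 0.31 (standard error).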

How the data were processed

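The sources describe RNA of sorted pTreg cells on Illumina MouseWG 6v2 arrays, 1 array per sample. The deposited values are linear intensity values, which the authors took from Genome Studio and then quantile normalized, with 35.4% to 35.97% below 0 per array, as background was subtracted. Column medians of 2.84 on slide 1 (replicate 1) and 2.64 to 2.65 on slide 2 (replicates 2 and 3) showed that slides had been normalized separately, so all 6 arrays were quantile normalized again, raised to each array's background (the 95th percentile of 1506 receptor probes) and log2 transformed. The arrays of effector T cells are not analysed here.

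Of the probes 34885 have 1 gene symbol, 18 several and 10378 none, and 34807 were matched to RefSeq (GRCm38.p6) for symbols only, since the array table names no build. Above background on at least 2 arrays were 17300 probes, 14817 with a symbol, and the brightest probe of each gene (3547 genes had more than 1) gave 9597 genes. Groups came from the genotype labels, and limma 3.58.1 (R 4.3.3) compared them (lmFit, eBayes, no block, Benjamini-Hochberg over all genes tested). Rose and fell are written only at an adjusted p under 0.05. The number of arrays, 3 per group, limits the precision. The labels of replicates 2 and 3 give each number a shared day and those of replicate 1 were run on a common slide, and deviations of same-numbered samples correlated at 0.51, 0.49 and 0.56 over genes, so the number was used as a block in an alternative fit. Only replicate 1 was on slide 1, so a difference between slides would also give positive correlations. They do not separate the replicate from the slide. Other alternatives were the slide as a block, the deposited values, other floors and filters, the mean of probes, eBayes with trend and robust, slide 2 only and each array left out, and, added after seeing the data, both arrays of replicate 2 left out. The code was tested on simulated data.

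The genes and lists were chosen with earlier results of these data known. Named genes are the 9 genes, Prdm1, Foxp3, up to 4 genes per list by smallest p among those past the adjusted p or else the study's thresholds, and the 5 genes nearest to Ifng. Ikzf3, Stat3, Tyk2, Jak2, Ifngr2, Cbfb, Gata3, Gbp3, Irgm2, Ifi47, Cxcr3, Cxcr6, Klrg1, Ccl3, Nkg7, Ccl5, Fasl, Tnf, Furin, Cd8a, Cd8b1 and the other cell type markers named fall outside this rule. They were picked with their values in view.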

Additional observations from a re-analysis of the deposited data

How the results depend on the processing

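None of the 7 tested Th1 genes passed an adjusted p of 0.05 in limma with any alternative: 0 by gene, and 0 by probe with the replicate block. At an unadjusted p under 0.05 the number without a block was 1 of 7 by gene and 2 of 11 by probe, against 8.10% of all genes and 7.64% of all probes. With the replicate block Tbx21 was also under 0.05 before adjustment, at 0.021 from limma. The direction held for Tbx21, Il18r1, Il18rap and Hopx with all 17 alternatives, and the adjusted p of Hopx ran from 0.27 to 0.99. Not every alternative could change the direction. The blocks and eBayes with trend and robust leave an estimate as it is, and the higher floor and other filters left it unchanged for these genes. Ifng turned to -0.18 without Ctrl replicate 2 and to -0.11 without both arrays of replicate 2, with a range of -0.18 to 1.08 over arrays left out. Eomes turned to 0.073 on slide 2 only, with a range of -1.04 to 0.14 over arrays left out. Il12rb1 turned to 0.34 without both arrays of replicate 2, with a range of -0.29 to 0.17 over arrays left out. The cause was not tested.

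Over all genes, 26 passed. The count was 176 with the replicate block, 16 with the slide block, 43 with no floor, 149 with no filter on dim probes, 50 with trend and robust, 0 on slide 2 only, 1 without both arrays of replicate 2 and 1 to 10 with 1 array left out, highest without Ctrl replicate 2. Of the pathway genes, 2 passed. The count was 13 with the replicate block, 1 with the slide block, 1 with the deposited values, 10 with no filter, 1 with the mean of probes, 5 with trend and robust, 0 on slide 2 only, 0 without both arrays of replicate 2 and 0 to 0 with any 1 array left out, so that Prdm1 and Bcl6 passed in none of those 6 fits. Counts of a list at the study's thresholds moved by over 1.5 times as follows with 1 array, or both of replicate 2, left out. For IL-12 signalling, 1 lower gene became 2 without CKO replicate 2, 2 without CKO replicate 3, 3 without Ctrl replicate 2 and 2 without both arrays of replicate 2, and 1 higher gene became 2 without CKO replicate 3. For IL-18 signalling, 3 higher genes became 1 without CKO replicate 2, and 1 lower gene became 2 without Ctrl replicate 2 or both arrays of replicate 2. For IFN-γ signalling, 2 lower genes became 1 without CKO replicate 3, Ctrl replicate 2, Ctrl replicate 3 or both arrays of replicate 2. For IFN-γ signalling and for IFN-γ-induced genes, 0 higher genes became 1 without CKO replicate 3 or Ctrl replicate 3. For factors that restrain Th1 genes, 1 higher gene became 2 without CKO replicate 3 or Ctrl replicate 3, and 0 lower genes became 1 without CKO replicate 1 and 2 without Ctrl replicate 3. For Th1 effector genes, 6 lower genes became 3 without CKO replicate 1 or Ctrl replicate 3, and for IFN-γ-induced genes 7 became 4 without both arrays of replicate 2. The 1 lower Th1 regulator was lost without CKO replicate 3, Ctrl replicate 1 or both arrays of replicate 2, and Runx1 without CKO replicate 1, CKO replicate 2, Ctrl replicate 1 or both arrays of replicate 2. The replicate block changed no call of the 7 Th1 genes tested. Dim probes bound what can be said of Eomes, Il12rb2 and Runx3, whose signal lies near or below background.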
